A study of Mus musculus with 4 samples.

Results

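Fibroblast growth factor (FGF) signalling in the limb bud was examined through 10 genes: the ligand Fgf10, the receptors Fgfr1, Fgfr2 and Fgfr3, the feedback inhibitors Spry1, Spry2, Spry4 and Dusp6, and the transcription factors Etv4 and Etv5. They were chosen by their place in the pathway, from the 22207 protein-coding genes annotated on chromosomes 1 to 19 and X. Chromatin accessibility had been profiled by ATAC-seq, in which the transposase Tn5 cuts and tags open DNA. The cells came from mouse limbs, forelimb and hindlimb together, at embryonic day E11.5, from embryos of the strain labelled c57bl6.J X 129S6.sv. There were 4 libraries, 2 labelled as mutant with a stop cassette insertion and 2 labelled wild type. The series concerns the long non-coding RNA Maenli and limb malformations that depend on engrailed-1, and the comparison asks whether open chromatin in the limb differs when a stop cassette is present. The site and zygosity of the cassette, and the number of embryos behind each library, are not given in the sources used here. All cells had been dissociated with trypsin and fixed before transposition.

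FGF10 is made by limb mesenchyme and signals to the overlying ectoderm through a splice form of FGFR2. Ridge FGFs signal back to the mesenchyme, mainly through FGFR1. The receptors are tyrosine kinases that act through the RAS and ERK cascade, and this cascade switches on Etv4, Etv5, Dusp6 and the Sprouty genes. Sprouty proteins dampen receptor signalling, and DUSP6 removes phosphate from ERK, so these genes are widely used as readouts of FGF activity.

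Each library came with its own list of peak summits, single positions on the mouse build mm9, each with a score that behaves as −log10 of a q-value. The stop cassette lists held 79083 and 107827 summits in replicates 1 and 2, and the wild-type lists 51701 and 68471. Read depth is unknown and scores depend on it, so each score was turned into a percentile, from the weakest (near 0) to the strongest (100) summit of its own list. The lists differed in length and in their scores. Median scores were 6.27 and 5.93 in stop cassette replicates 1 and 2, and 5.24 and 5.70 in the wild-type replicates. At Fgfr1, a score of 12.1 ranked at 74.96 in stop cassette replicate 1 and at 83.3 in wild-type replicate 2. A percentile thus depends on its list as well as on the summit. Results are therefore also given for lists reduced to their 51701 highest-scoring summits (equal length). A promoter summit lay within 1 kb of an annotated start of the gene, and the strongest one gave the promoter percentile. Nothing in the labels says that libraries of a genotype came from separate litters, so the spread between them may be technical. The peak names of both wild-type lists carry 1 shared replicate number with a sub-number. With 2 libraries against 2, the exact two-sided permutation test cannot give a p below 0.333. Accessibility is an average over all cells, so fewer cells with an open site and a less open site cannot be told apart.

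Promoter calls of cell type markers did little to check the tissue. A promoter summit was present in all 4 lists for 6 of 10 limb mesenchyme markers (Prrx1, Twist1, Msx1, Hand2, Pitx1 and Meis2), close to the 57.7% of all protein-coding genes. Tbx5, a forelimb factor, had none within 1 kb of a start in any list, and neither did the liver genes Alb, Apoa1 and Afp. Against the same 57.7%, called in all 4 lists were 2 of 7 surface ectoderm markers, 1 of 5 for muscle precursors, 2 of 5 for endothelium, 1 of 3 for neural crest and glia and 2 of 3 for neurons. Some marker levels differed with the genotype label, as did the promoter percentiles of many genes. As deposited, 41.3% of the genes called in all 4 lists ranked higher in both stop cassette lists, and 4.34% in both wild-type lists. As deposited, blood markers were higher with the stop cassette: the mean promoter percentile of 4 blood markers (0 where not called) was 61.3 and 52.2 in the stop cassette lists and 21.5 and 21.0 in the wild-type lists. At equal length these means were 54.1 and 27.5 against 21.5 and 11.6. Gata1, a red cell factor, ranked at 74.5 and 56.4 against 10.4 and 26.0, while the pan-leukocyte gene Ptprc was called in no list. As deposited, the neural crest and glia markers stood at 32.6 and 32.5 against 31.3 and 32.4, and the genotypes overlapped or had no call in the other groups. At equal length, where wild-type replicate 1 alone lost no summit, 4 groups were higher in both wild-type lists. Among genes called in all 4 equal-length lists, 19.9% were higher in both wild-type lists and 20.2% in both stop cassette lists. The means were 18.3 and 19.5 against 23.3 and 34.3 for limb mesenchyme, and 8.64 and 6.80 against 15.3 and 19.5 for surface ectoderm. They were 24.9 and 21.9 against 26.8 and 32.3 for endothelium, and 51.0 and 67.0 against 77.1 and 74.3 for neurons. The part of cell composition in the differences below was not tested.

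All 10 genes had a promoter summit in all 4 lists, as did 57.7% of protein-coding genes. Most of their promoters ranked in the lower part of the promoters that were open in every list. The mean percentile over the 4 lists had a median of 82.3 over the 10 genes and 89.7 over the 12814 genes called in every list, and 9 of the 10 genes lay below that 89.7. The exception was Etv5.

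Fgf10 encodes the mesenchymal ligand itself (ENSMUSG00000021732.8, chr13:119458598-119580922, plus strand). Its strongest promoter summit ranked at the 66.5 and 85.7 percentiles in stop cassette replicates 1 and 2, and at 75.1 and 73.2 in the wild-type replicates. The stop cassette lists held both the lowest and the highest value, so the genotypes overlapped. The means were 76.1 ± 13.6 for stop cassette and 74.1 ± 1.32 for wild type (SD, n = 2 each), a difference of 1.91 percentile points (exact permutation p = 1; 1 after Benjamini-Hochberg adjustment over 12814 genes). At equal length the values were 48.7 and 70.1 against 75.1 and 64.5, and the difference was -10.4, so its direction depends on list length. Fgf10 stood at the 19.5 percentile of genes by mean promoter percentile. All these strongest summits lay 263 to 323 bp upstream of the start at 119503506, which is the start of the protein-coding transcript and lies inside the body of the gene. The region around this start was wide. It spanned 1928 bp (chr13:119502274-119504201), wider than 98.6% of all merged regions, and overlapped Gm16263, a transcript annotated on the opposite strand. At the first annotated start, a weak region appeared in the 2 lists of replicate number 2 only, at the 29.8 and 2.86 percentiles.

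The 250 bases before the internal Fgf10 start are printed here because all 4 lists place the strongest summit just before this stretch. Capitals mark motifs that were searched for: an SP box (GGGCGG, here on the opposite strand) and an E-box (CAGATG).
Fgf10 promoter, chr13:119503256-119503505, plus strand, mm9: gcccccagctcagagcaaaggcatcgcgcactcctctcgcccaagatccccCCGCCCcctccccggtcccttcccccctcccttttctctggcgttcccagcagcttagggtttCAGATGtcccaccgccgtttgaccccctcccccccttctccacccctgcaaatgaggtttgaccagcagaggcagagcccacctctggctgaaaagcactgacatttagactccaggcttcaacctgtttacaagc

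Among the receptors, Fgfr1 and Fgfr2 had similar promoter ranks, and Fgfr3 had the lowest mean of the 10 genes. Fgfr1, the main receptor of limb mesenchyme (ENSMUSG00000031565.10, with another entry ENSMUSG00000091895.1, chr8:26624126-26686186, plus strand), ranked at 74.96 and 84.5 in the stop cassette lists and at 86.5 and 83.3 in the wild-type lists. The low value came from stop cassette replicate 1, and the genotypes overlapped. The difference in means was -5.19 (79.7 ± 6.75 against 84.9 ± 2.27, SD, n = 2 each; exact permutation p = 0.667, adjusted 0.899), and -0.417 without stop cassette replicate 1. At equal length it was -17.5, with 61.7 and 67.7 against 86.5 and 77.9, and the genotypes no longer overlapped. The strongest summits lay 8 to 51 bp upstream of an internal start.

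Fgfr2, the receptor that answers FGF10 in ectoderm (ENSMUSG00000030849.10, chr7:137306026-137410322, minus strand), ranked at 73.2 and 86.4 with the stop cassette and at 84.0 and 87.1 in wild type. Stop cassette replicate 1 was again the low library. The difference was -5.76 (79.8 ± 9.35 against 85.6 ± 2.22, SD, n = 2 each; exact permutation p = 0.667, adjusted 0.899), and 0.850 without stop cassette replicate 1. It was -18.1 at equal length, where 59.0 and 71.7 stood against 84.0 and 83.0 without overlap. In 3 lists the strongest summit lay within 3 bp of a start, and in stop cassette replicate 1 it lay 112 bp upstream.

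Fgfr3, a receptor best known from cartilage growth (ENSMUSG00000054252.9, chr5:34064373-34079716, plus strand), split by replicate number rather than by genotype. It ranked at 72.4 and 50.3 with the stop cassette and at 70.4 and 40.2 in wild type. Its spread over the 4 lists was the widest of the 10 genes (58.3 ± 15.7, SD, n = 4), and it stood at the 7.59 percentile of genes. The difference of 6.10 was smaller than either SD (15.6 and 21.3; exact permutation p = 0.667). At equal length its promoter was not called in stop cassette replicate 2, and wild-type replicate 2 held it at 20.8. It was the only one of the 10 genes to lose a call there, while 54.9% of protein-coding genes were called in all 4 equal-length lists.

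**Figure D1:**
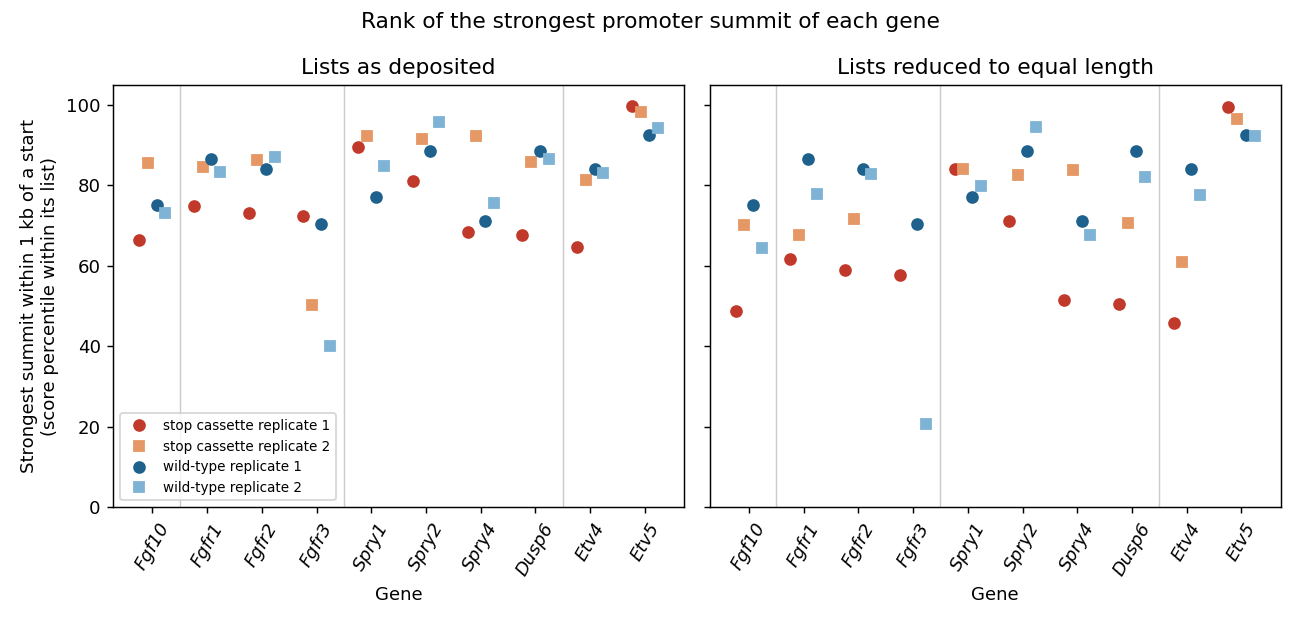
The vertical axis gives the percentile, within its own list, of the strongest summit within 1 kb of a start, and each point is 1 gene in 1 library (left, lists as deposited; right, lists reduced to 51701 summits). Etv5 lies highest in both panels except in wild-type replicate 2, where Spry2 is higher, and Fgfr3 spreads most. The red circles of stop cassette replicate 1 drop lowest for most genes, for example Etv4 at 64.7 and 45.9.

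Among the feedback inhibitors, Spry1 and Dusp6 went in opposite directions between the genotypes. With 2 libraries against 2, neither difference could pass the adjusted test. Spry1, a Sprouty inhibitor of receptor signalling (ENSMUSG00000037211.5, chr3:37538869-37543520, plus strand), ranked at 89.6 and 92.3 in the stop cassette lists and at 77.2 and 84.8 in the wild-type lists. Both stop cassette values lay above both wild-type values. The difference was 9.97 (91.0 ± 1.96 against 81.0 ± 5.40, SD, n = 2 each; exact permutation p = 0.333, adjusted 0.731). It was larger than either SD. It was 24.7 with the stricter score threshold of 5.83 and 5.51 at equal length, where 84.0 and 84.0 stood against 77.2 and 79.9. The stricter score left lists of unequal length, 43678 and 54554 summits with the stop cassette and 23148 and 32159 in wild type. Spry1 also held the most promoter summits of the 10 genes, 5 per list on average, above 95.6% of genes.

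Dusp6, the ERK phosphatase (ENSMUSG00000019960.6, chr10:98725865-98730122, plus strand), ranked at 67.6 and 85.9 with the stop cassette and at 88.6 and 86.5 in wild type. The scores before ranking overlapped, with 9.68 and 15.2 against 13.5 and 13.7. As percentiles both wild-type values were higher, but the nearest values of the genotypes, 85.9 and 86.5, nearly touched. The difference was -10.8 (76.8 ± 12.9 against 87.6 ± 1.45, SD, n = 2 each; exact permutation p = 0.333, adjusted 0.731), less than the stop cassette SD. With a 2 kb promoter limit the genotypes overlapped, with stop cassette replicate 2 at 86.60 and wild-type replicate 2 at 86.54. The difference was then -10.4. With the 1 kb limit and without stop cassette replicate 1, it was -1.66. At equal length it was -24.8, with 50.5 and 70.6 against 88.6 and 82.2. The strongest summit lay 31 and 11 bp inside the gene in the stop cassette lists and 53 and 81 bp before it in the wild-type lists.

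Spry2 and Spry4 overlapped between the genotypes as deposited. Spry2 (ENSMUSG00000022114.4, chr14:106291166-106296036, minus strand) ranked at 81.2 and 91.7 with the stop cassette and at 88.7 and 95.8 in wild type, a difference of -5.84 (86.4 ± 7.44 against 92.3 ± 5.05, SD, n = 2 each; exact permutation p = 0.667, adjusted 0.899). Without stop cassette replicate 1 it was -0.578. Its strongest summits lay unusually far out for these genes, 472 to 603 bp upstream of its only start. With a 500 bp promoter limit the difference was 21.6, because summits beyond 500 bp then drop out. At equal length it was -14.7, with 71.2 and 82.6 against 88.7 and 94.5 and no overlap.

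Spry4 (ENSMUSG00000024427.6, chr18:38745922-38760922, minus strand) ranked at 68.4 and 92.3 with the stop cassette and at 71.0 and 75.6 in wild type. Stop cassette replicates 1 and 2 were the lowest and the highest library. The difference was 7.01 (80.3 ± 16.9 against 73.3 ± 3.21, SD, n = 2 each; exact permutation p = 1) and turned to -1.61 at equal length. Its strongest summit lay at the same base, 67 bp upstream, in 3 lists. The median summit of the Spry4 start region also lies 107 bp upstream of the start of 9630014M24Rik, which runs the other way, so the 2 promoters cannot be told apart.

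The response factors Etv4 and Etv5, closely related ETS proteins, differed in opposite directions between the genotypes. Etv5 had the highest mean over the 4 lists of the 10 genes, 96.2, and Etv4 had 78.3. Etv5 (ENSMUSG00000013089.8, chr16:22381382-22439792, minus strand) ranked at 99.7 and 98.4 with the stop cassette and at 92.6 and 94.2 in wild type. It was the highest of the 10 genes in both stop cassette lists and in wild-type replicate 1, and Spry2 was higher in wild-type replicate 2. The difference was 5.69 (99.1 ± 0.978 against 93.4 ± 1.15, SD, n = 2 each; exact permutation p = 0.333, adjusted 0.731), larger than either SD, and 12.7 with the stricter score. Equal length left it at 5.67, with 99.6 and 96.6 against 92.6 and 92.3. All strongest summits lay within 18 bp of the start, just upstream in the stop cassette lists and just downstream in the wild-type lists.

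Etv4 (ENSMUSG00000017724.8, chr11:101631056-101646685, minus strand) ranked at 64.7 and 81.3 with the stop cassette and at 84.0 and 83.2 in wild type. Both wild-type values were higher. The difference was -10.6 (73.0 ± 11.8 against 83.6 ± 0.584, SD, n = 2 each; exact permutation p = 0.333, adjusted 0.731), less than the stop cassette SD, and -2.29 without stop cassette replicate 1. It was -20.4 with starts of protein-coding transcripts only. At equal length it was -27.4, the widest of the 9 genes called in all lists, with 45.9 and 61.0 against 84.0 and 77.7. Different starts carried the strongest summit. In the wild-type lists it lay 26 to 29 bp upstream of a start in the first-start region (chr11:101645613-101647240). In the stop cassette lists it lay 536 to 571 bp upstream of an internal start (chr11:101633397-101634345). The first-start region ranked at 45.1 and 81.3 with the stop cassette against 84.0 and 83.2, and the internal one at 64.7 and 81.3 against 61.0 and 71.8. At the first-start region, the low value was that of stop cassette replicate 1 alone.

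The promoters of the 4 genes whose genotypes did not overlap are shown next, each as the 250 bases before its first or only start. In Spry1 the capitals mark an SP box. No searched motif was found in Dusp6. In Etv4 and Etv5 the capitals mark the longest run of letters shared by both, TTTTTTATGAATG, which begins 145 and 216 bases before the start and was picked out after the sequences were seen. It occurs in 3 of 12814 promoter windows of this length (0.0234%), and these include the Etv4 and Etv5 windows from which it was taken. Because it was picked as the longest shared run, this count is no test of its rarity.
Spry1 promoter, chr3:37538619-37538868, plus strand, mm9: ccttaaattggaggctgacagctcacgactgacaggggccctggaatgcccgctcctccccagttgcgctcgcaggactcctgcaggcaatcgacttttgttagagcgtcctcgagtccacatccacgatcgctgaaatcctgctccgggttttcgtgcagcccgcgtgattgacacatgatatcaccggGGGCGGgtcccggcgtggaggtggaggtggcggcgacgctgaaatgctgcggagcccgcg
Dusp6 promoter, chr10:98725615-98725864, plus strand, mm9: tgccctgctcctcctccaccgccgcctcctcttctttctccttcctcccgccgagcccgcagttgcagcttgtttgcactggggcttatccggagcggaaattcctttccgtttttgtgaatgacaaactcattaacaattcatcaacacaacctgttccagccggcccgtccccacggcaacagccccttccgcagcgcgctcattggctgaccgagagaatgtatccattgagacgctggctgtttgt
Etv4 promoter, chr11:101646686-101646935, minus strand, mm9: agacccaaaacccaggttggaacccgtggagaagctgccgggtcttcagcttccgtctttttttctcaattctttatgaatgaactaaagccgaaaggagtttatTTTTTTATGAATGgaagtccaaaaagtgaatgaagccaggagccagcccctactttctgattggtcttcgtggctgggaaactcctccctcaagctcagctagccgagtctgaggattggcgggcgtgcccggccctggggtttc
Etv5 promoter, chr16:22439793-22440042, minus strand, mm9: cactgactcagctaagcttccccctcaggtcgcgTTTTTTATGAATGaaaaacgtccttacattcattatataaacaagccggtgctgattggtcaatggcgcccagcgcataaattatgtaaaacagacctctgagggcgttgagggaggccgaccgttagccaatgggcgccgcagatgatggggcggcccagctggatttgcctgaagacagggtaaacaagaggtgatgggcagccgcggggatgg

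Set side by side, the roles overlapped. The median promoter percentile in stop cassette replicates 1 and 2 and wild-type replicates 1 and 2 was 73.2, 84.5, 84.0 and 83.3 for the receptors. It was 74.8, 92.0, 82.9 and 85.7 for the feedback inhibitors. For the 2 response factors it was 82.2, 89.8, 88.3 and 88.7. In every role the lowest of these medians was that of stop cassette replicate 1, and Fgf10 was lowest there too. Single genes showed the same order. Stop cassette replicate 1 held the lowest promoter percentile of the 4 lists in 7 of 10 genes, where 22.6% of all genes did so. At equal length it was again 7, among the 9 genes called in all 4 lists, with a background of 30.8%.

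As deposited, both stop cassette values lay above both wild-type values in 2 of 10 genes (Spry1 and Etv5), against 41.3% of all genes. Both wild-type values lay above both stop cassette values in 2 of 10 (Dusp6 and Etv4), against 4.34%. For Dusp6 this held with the 1 kb promoter limit and not with 2 kb. At equal length the counts were 2 of 9 with stop cassette higher (20.2% of all genes) and 5 of 9 with wild type higher (19.9%), the 5 being Fgfr1, Fgfr2, Spry2, Dusp6 and Etv4. Thus the pattern over the 10 genes depended on list length. With 2 libraries against 2, none of the 10 differences could pass the adjusted test. Spry1, Etv5, Dusp6 and Etv4 kept their direction in both kinds of list, and so did Fgfr1, Fgfr2 and Spry2. Fgf10 and Spry4 turned.

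**Figure D2:**
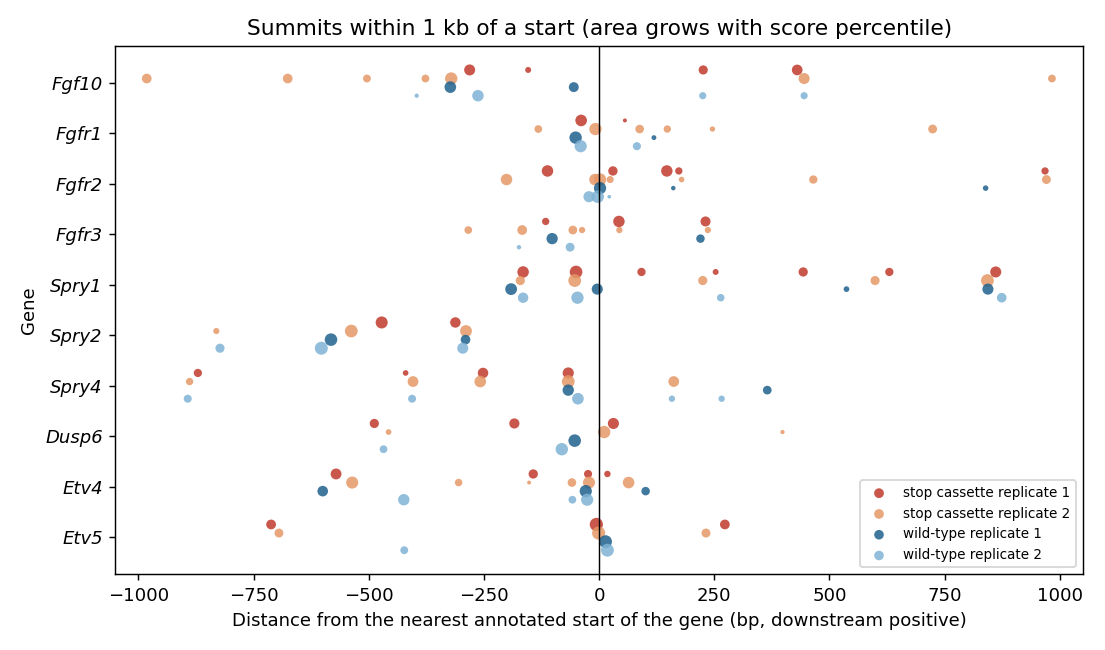
The horizontal axis gives the distance in bp of every summit within 1 kb of the nearest annotated start of its gene, downstream positive, and a larger point has a higher score percentile. The strongest summits of Etv5 lie within 18 bp of the start, those of Fgf10 263 to 323 bp before it and those of Spry2 472 to 603 bp before it, while weaker summits spread wider, for Fgf10 up to 983 bp away.

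Next, accessible regions were traced around each gene by extending every summit by 250 bp on both sides and merging over the 4 lists. Within 50 kb of the 10 gene bodies lay 85 regions. All 4 lists held 37 of them (43.5%), against 32% of the 74582 regions of the genome. The stop cassette lists held 55 and 80 of the 85 and the wild-type lists 48 and 57. Stop cassette replicate 2 alone held 15 (17.6%), against 22.2% of all regions. At the genes' own starts lay 19 regions, 11 of them held by all 4 lists, against 74% of all regions within 1 kb of a start. At equal length there were 59 regions, 30 held by all 4 lists, against 38.3% of all regions. For 73 of the 85 regions the nearest start of a protein-coding gene was that of the gene itself.

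Dusp6 and Fgfr1 had the densest surroundings. Dusp6 had 15 and 16 summits within 50 kb in the stop cassette lists and 12 and 17 in the wild-type lists, a mean of 14.4 per 100 kb, above 91.5% of genes. The median summits of its 8 regions all lay outside the gene body, and all 4 lists held 5 of them. Fgfr1 had 20 and 26 summits with the stop cassette and 17 and 18 in wild type, 12.5 per 100 kb (above 87.3% of genes). These include the start regions of the neighbours Letm2 and Whsc1l1, which held 9 and 15 summits over the 4 lists. Etv5 was the sparsest, with 7 and 10 against 4 and 7, or 4.42 per 100 kb, below the median of 5.36 over all genes. The gene with the highest-ranked promoter thus had the lowest summit density of the 10 around it.

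The 10 genes together had 104 and 161 summits within 50 kb in the stop cassette lists and 76 and 103 in the wild-type lists. As shares of each list these were 0.132% and 0.149% against 0.147% and 0.150%. The stop cassette mean was 0.140% ± 0.0126 and the wild-type mean 0.149% ± 0.00243 (SD, n = 2 each). The difference of -0.00830 percentage points was smaller than the stop cassette SD, and was 0.000599 without stop cassette replicate 1. By gene, the shares did not overlap with wild type higher in 3 of 10 genes (Fgfr1, Spry2 and Dusp6), against 18.6% of all genes, and with stop cassette higher in 1 (Fgfr2), against 12.3%. After adjustment over 22207 genes every such exact permutation p was 1.

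**Figure D3:**
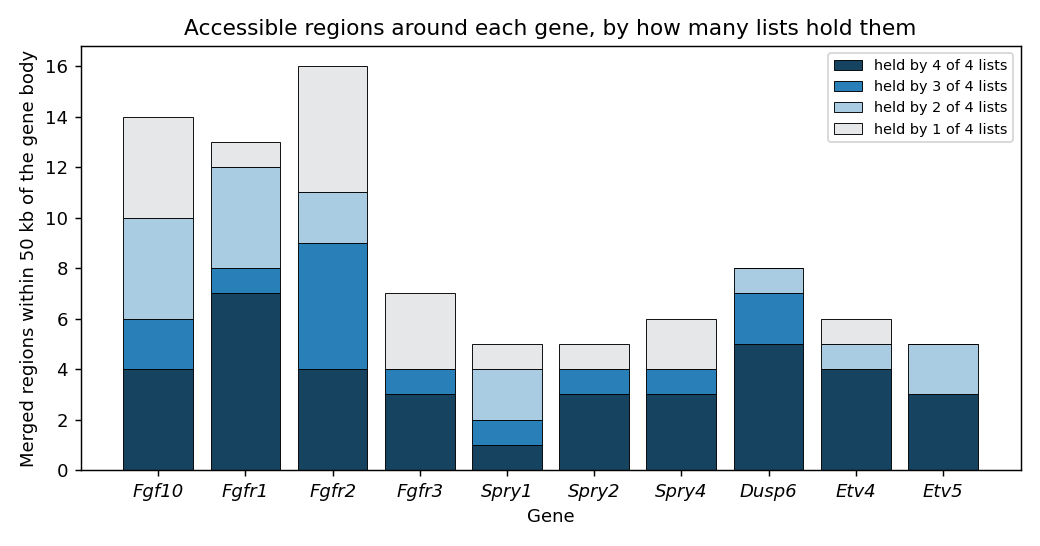
Bars count the merged regions within 50 kb of each gene body, split by how many of the 4 lists hold them. Fgfr2 has 16 regions with 4 held by all lists, Fgfr1 has 13 with 7, and Dusp6 has 8 with 5.

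Regions over 1 kb from the start of any protein-coding gene numbered 62, and all 4 lists held 22 of them (35.5%), against 19.4% of the 57406 such regions of the genome. The region of this kind with the highest mean percentile is given for each gene, a choice made after the values were seen. At Fgf10 it was intronic, 31920 bp downstream of the internal start (chr13:119534830-119535768), and ranked at 46.3 and 85.5 with the stop cassette and at 85.6 and 77.4 in wild type. It outranked the Fgf10 promoter in both wild-type lists and in neither stop cassette list. At Fgfr1 it was also intronic (chr8:26653743-26654747), at 67.9 and 91.2 against 75.8 and 86.6. In both replicate 2 lists it outranked the Fgfr1 promoter.

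At Fgfr2 it was intergenic, 32555 bp upstream (chr7:137442621-137443142), at 49.1 and 79.4 against 65.8 and 36.9. At Fgfr3 it lay 29085 bp upstream (chr5:34034730-34035540), at 10.9 and 39.6 against 60.5 and 56.6, with both wild-type values higher. The nearest start there was that of Tacc3. The higher-ranked region within 50 kb of Fgfr3, at 99.5 and 99.3 against 95.3 and 95.2, is the start of another gene, Letm1.

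At Dusp6 it lay 5954 bp downstream of the start, past the end of the gene (chr10:98731402-98732471), at 70.1 and 78.1 against 69.5 and 86.8. Another Dusp6 region, 35862 bp downstream (chr10:98761005-98762376), ranked at 50.4 and 89.4 against 70.1 and 77.0. At Spry2 it lay 2159 bp upstream (chr14:106297701-106298548), at 51.7 and 66.3 against 70.2 and 47.9. At Spry4 it lay 1912 bp beyond the gene end (chr18:38743260-38744611), at 72.3 and 92.7 against 71.7 and 80.5. In each list the Spry4 region outranked the Spry4 promoter, whose values were 68.4 and 92.3 against 71.0 and 75.6.

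Spry1 had no region away from its start that all 4 lists held. Its best one, 26948 bp downstream (chr3:37565534-37566118), ranked at 16.7 and 34.7 with the stop cassette, was not called in wild-type replicate 1, and ranked at 59.5 in wild-type replicate 2. At Etv4 it was intergenic, 29560 bp upstream (chr11:101675988-101676501), at 56.5 and 75.7 against 46.6 and 46.7. At Etv5 it was intronic (chr16:22428615-22429928), at 29.4 and 78.9 against 31.7 and 89.0. Like the Fgfr3 promoter, the Etv5 region split by replicate number and not by genotype.

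The 300 bases at the median summit of 4 such regions are printed on the plus strand: Fgf10 and Fgfr1 because these introns rival the promoters, and Spry2 and Dusp6 as examples of regions just outside a short gene. Capitals mark matches to the searched motifs. Fgf10 holds 2 AP-1 sites (TGANTCA), a homeodomain site (TAATTA) and an E-box. Fgfr1 holds 2 SP boxes on the opposite strand. Spry2 holds an ETS core (CCGGAA) on the opposite strand. Dusp6 holds none.
Fgf10 intron, chr13:119535277-119535576, mm9: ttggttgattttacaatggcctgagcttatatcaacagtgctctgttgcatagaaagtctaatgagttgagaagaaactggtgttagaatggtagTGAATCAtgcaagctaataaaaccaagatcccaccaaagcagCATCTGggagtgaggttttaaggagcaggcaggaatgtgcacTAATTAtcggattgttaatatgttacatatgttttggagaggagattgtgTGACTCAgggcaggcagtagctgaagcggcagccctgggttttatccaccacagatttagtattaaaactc
Fgfr1 intron, chr8:26653970-26654269, mm9: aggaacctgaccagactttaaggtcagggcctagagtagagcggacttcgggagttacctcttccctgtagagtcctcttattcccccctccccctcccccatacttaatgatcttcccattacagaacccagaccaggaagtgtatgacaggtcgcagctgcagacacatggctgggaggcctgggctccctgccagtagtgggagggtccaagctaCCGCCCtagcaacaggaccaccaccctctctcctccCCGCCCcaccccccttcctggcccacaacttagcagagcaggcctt
Spry2 upstream, chr14:106298046-106298345, mm9: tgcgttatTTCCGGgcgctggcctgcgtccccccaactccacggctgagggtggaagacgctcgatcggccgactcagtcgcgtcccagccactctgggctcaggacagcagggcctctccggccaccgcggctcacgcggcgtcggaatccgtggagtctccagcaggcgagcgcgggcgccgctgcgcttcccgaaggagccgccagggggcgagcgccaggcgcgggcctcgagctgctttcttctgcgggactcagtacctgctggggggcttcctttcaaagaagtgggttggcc
Dusp6 downstream, chr10:98731670-98731969, mm9: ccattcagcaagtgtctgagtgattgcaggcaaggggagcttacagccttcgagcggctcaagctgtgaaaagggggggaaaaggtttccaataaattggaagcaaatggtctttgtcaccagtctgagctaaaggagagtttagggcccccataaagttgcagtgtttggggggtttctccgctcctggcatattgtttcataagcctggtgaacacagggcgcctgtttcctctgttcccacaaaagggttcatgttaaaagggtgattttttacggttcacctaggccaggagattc

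**Figure D4:**
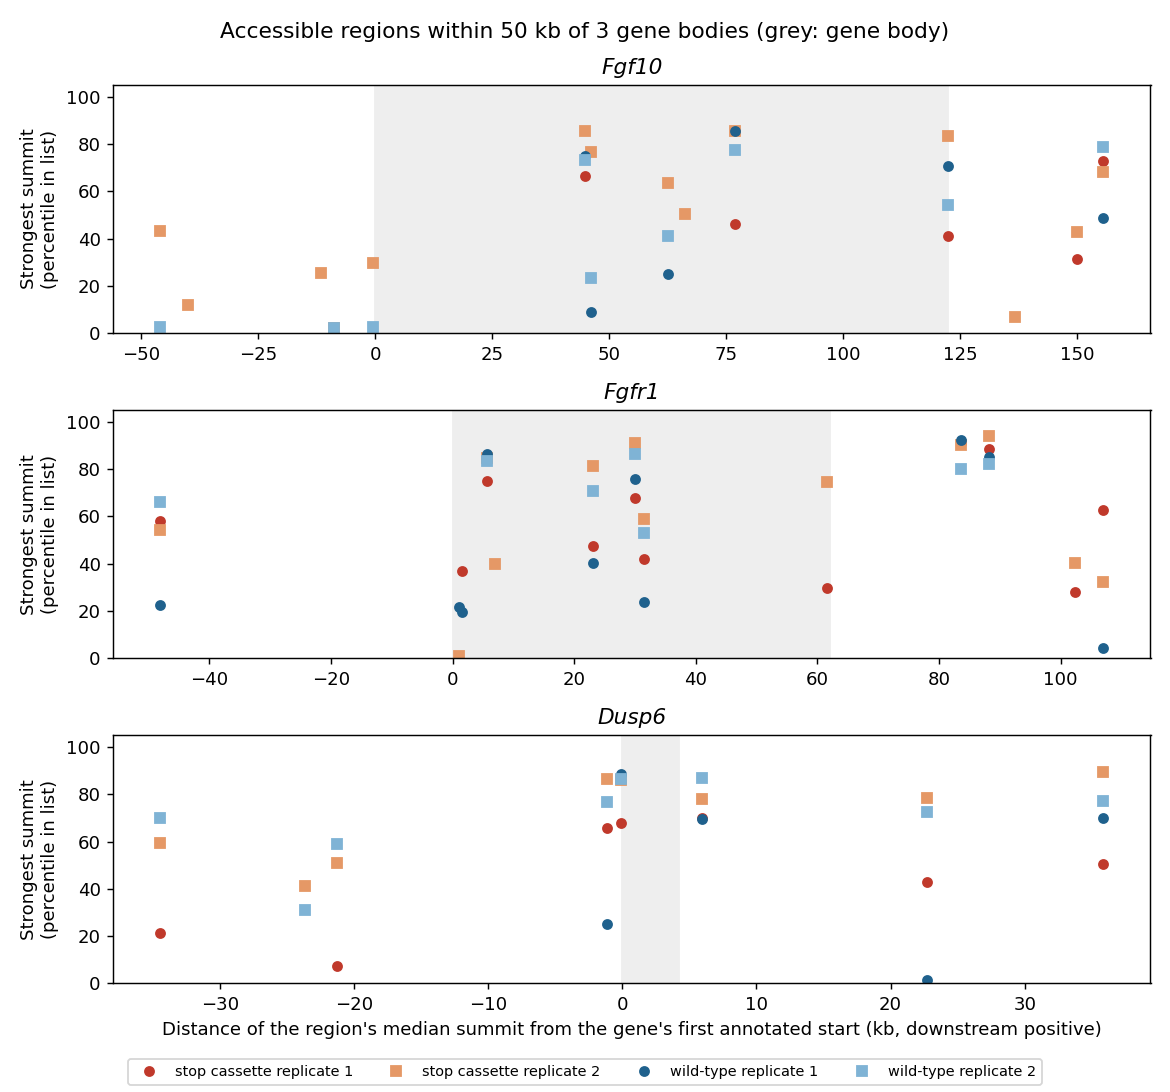
The horizontal axis gives the distance in kb of each region's median summit from the first annotated start of Fgf10, Fgfr1 or Dusp6, and the vertical axis the percentile of its strongest summit in each list that holds it. Grey marks the gene body. In stop cassette replicate 2 the highest Fgf10 point lies at the internal start (85.7), and in wild-type replicate 1 in the intron beyond it (85.6). In stop cassette replicate 1 and wild-type replicate 2 it lies 33211 bp past the gene end, at 72.7 and 78.9. Dusp6 has regions on both sides of a short body.

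Regions held by both libraries of a genotype and by neither of the other were few. There were 4 of 85 for the stop cassette, against 10% of all regions, and 0 for wild type, against 0.314%. The stop cassette-specific regions were an intergenic one 27687 bp beyond the end of Fgf10 (chr13:119607782-119609370), at the 31.6 and 42.8 percentiles, and 3 others. One lay in a UTR of Fgfr1 (chr8:26685458-26685981), at 29.95 and 74.4. Another lay in an intron of the neighbour Whsc1l1 (chr8:26726143-26726656), at 28.2 and 40.4. The weakest lay in an Etv5 intron (chr16:22390281-22390998), at 7.55 and 6.87. At equal length none of the 4 was left, and 5.21% of all regions were stop cassette-specific. With the lists as deposited, leaving out 1 library let the other stand for its genotype, and the stop cassette-specific count was then 7 to 19 (19 without stop cassette replicate 1). At equal length there were 2 wild type-specific regions, against 2.23% of all. One lay near the Fgfr1 start (chr8:26629623-26630160, at 6.57 and 10.7) and one upstream of Fgfr3 (chr5:34035038-34035540, at 60.5 and 42.5). Both lay within regions that all 4 lists held as deposited. The strongest stop cassette summits inside the first then ranked at 1.68 and 37.5. The Fgfr3 region then ranked at 10.9 and 39.6 in the stop cassette lists.

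Threshold cases were as follows. A Fgf10 region whose nearest summit lay 983 bp from a start counted as a promoter region. An Etv5 region at 1002 bp and a Dusp6 region at 1005 bp did not. The Etv5 region ranked at 17.7 and 68.4 against 18.9 and 48.4, and the Dusp6 region at 65.7 and 86.6 against 25.1 and 76.6.

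Sequence composition varied among the 10 genes. In the 1 kb around the start, Fgf10 had a CpG observed to expected ratio of 0.533, at the 14.8 percentile of genes, and Spry1 had 0.980, at the 95.0 percentile. The median over all genes was 0.745. Dusp6 had the lowest GC content of the 10 genes, 54.6%, against a median of 60.15%. The motifs were searched on both strands of the 250 bases before each start. The SP box was present in 6 of 10 genes, against 64.9% of all promoters, and the E-box in 3 of 10 (Fgf10, Fgfr2 and Etv5), against 8.98%. The ETS core was present in Spry4 alone, against 23.2%, and the longer ETS motif CCGGAAGT in none, against 6.29%. AP-1 was present in Etv5 alone, against 3.22%, overlapping no other match.

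The motifs GLI (TGGGTGGTC), TCF/LEF (CTTTGAT), homeodomain, posterior HOX (CAATAAAA) and T-box (AGGTGTGA) were in none of the 10 windows, against 0.219%, 1.87%, 1.7%, 0.773% and 0.57% of all promoters. In the 62 distal windows of 300 bases, the E-box was present in 16 (25.8%, against 29.2% of all such windows) and the SP box in 12 (19.4%, against 12.6%). The homeodomain motif was in 8 (12.9% against 9.94%), AP-1 in 7 (11.3% against 10.3%) and the ETS core in 5 (8.06% against 5.16%). Posterior HOX and T-box matches were in 3 windows each (4.84%, against 2.85% and 1.48%). TCF/LEF, GLI and the longer ETS motif were in 0 windows, against 4.95%, 0.34% and 0.543%. Among the 22 windows held by all 4 lists, the ETS core was in 1 (4.55% against 7.81%) and the T-box in 0 (against 1.08%), so the order against the background was not the same there. The CCAAT box, added after the promoters were seen, was present in 6 of 10 promoters (Fgfr2, Fgfr3, Spry1, Dusp6, Etv4 and Etv5), against 35.8%. None of these motif counts and shares was tested.

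The 3 protein-coding genes Clu, Rnf217 and Apba2 lay closest to Fgf10 in promoter percentile over the 4 lists. Their Euclidean distances were 2.91, 3.23 and 3.78 percentile points. Clu, the closest, ranked at 64.7 and 85.6 with the stop cassette and at 74.6 and 75.4 in wild type.

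Around these 10 genes, 37 other FGF pathway genes of a list of 39 were found in the annotation under the symbols used. A promoter summit was present in all 4 lists for 34 of them, against 57.7% of all protein-coding genes, in some lists for 1 and in none for 2. All the receptors and relay genes found were called, 4 and 14 of them, and so were 11 of 11 feedback and response genes. The exceptions were ridge ligands, though not every ridge ligand was one. Fgf4 and Fgf17 were called in no list, and Fgf8 in stop cassette replicate 2 alone, at the 30.1 percentile. The ridge ligand Fgf9 was called in all 4 lists, at 33.1 and 74.7 with the stop cassette against 38.1 and 80.3. By contrast Fgf2 ranked at 98.3 and 98.3 against 94.2 and 97.2. Fgfr4, a receptor not in the set of 10, ranked at 4.89 and 65.3 against 31.7 and 50.7, below Fgfr1 and Fgfr2 in every list. Among the feedback genes, Il17rd, which encodes the receptor-binding inhibitor SEF, ranked at 63.9 and 85.7 against 61.3 and 70.4. Spred2, a relative of the Sproutys, ranked at 81.0 and 86.9 against 60.2 and 71.5. Of the 34 genes, the stop cassette was higher without overlap in 13, against 41.3% of all genes, wild type was higher in 1, against 4.34%, and 20 overlapped.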

How the data were processed

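The 10 genes, the pathway and marker lists and the motifs were chosen with earlier results of these data known. The authors deposited 1 list of 1 bp summits per library, so summits were called per library. The deposited score column was read as −log10 of a q-value, since its lowest value is about 1.30 in each list. Per the submitters' processing notes, reads were aligned to mm9 and the tools include Bowtie2 2.2.6 and Picard. Per the file headers, here the deposited peak names, the mapping quality was 30. The peak caller and any read shift are not given in the sources used here.

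Starts and gene bodies came from GENCODE M1 (NCBIM37, the same build). Transcripts over 2.5 Mb were left out, which affected 2 genes, among them Fgfr2. Named regions were the highest by mean percentile at and away from the starts of each gene, and all genotype-specific ones. Where the region away from its starts was another gene's start, the best region away from all starts was given instead. A region was specific when both lists of a genotype and neither of the other held it. Group means were compared by exact two-sided permutation tests with Benjamini-Hochberg adjustment over all genes (Python 3.11.15, numpy 2.4.6, pandas 2.3.3). Promoter and region windows were read from the NCBIM37 genome. Region counting was tested on simulated lists. The alternatives were equal list length, a stricter score (5.83), promoter limits of 500 bp and 2 kb, protein-coding starts only, flanks of 20 and 100 kb, extensions of 100 and 500 bp, 50% reciprocal overlap, each library left out, and replicate pairing.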

Additional observations from a re-analysis of the deposited data

How the results depend on the processing

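Read depth is unknown, and lists of unequal length limit every comparison of percentiles; with 2 libraries a genotype no exact permutation p can fall below 0.333, and with replicate numbers as pairs none below 0.5. No label says that a replicate number marks a shared litter or day. Deviations of same-numbered libraries from their genotype means correlated at 0.197 over 12814 genes; with 2 libraries a genotype this is 1 value for both numbers and does not settle whether they pair the libraries. With the replicate block the difference in summits near the genes stayed at -0.00830 percentage points, and it changed no other call.

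The mean number of the 10 promoters called per list differed between genotypes by 0, by -0.5 at equal length and by 0.5 with the stricter score. The difference in summits within 50 kb, -0.00830 percentage points of a list, was -0.0329 at equal length, 0.00291 within 100 kb, and -0.0172 to 0.000599 with a library left out. Regions held by all 4 lists numbered 19 with the stricter score, 24 within 20 kb, 20 with reciprocal overlap and 69 with the long Fgfr2 transcript (an alternative chosen after seeing the data), against 37. Stop cassette-specific regions numbered 0 at equal length, 2 within 20 kb, 11 within 100 kb, 8 with an extension of 100 bp, 9 with the long transcript and 7 to 19 with a library left out, against 4. Wild type-specific regions numbered 2 at equal length, 1 with the stricter score, 1 with reciprocal overlap, 2 with the long transcript and 0 to 5 with a library left out, against 0. Fewer regions enter the smaller flank and fewer summits the shorter lists by construction; other causes were not tested.

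Promoter differences that turned were Fgf10 (-10.4) and Spry4 (-1.61) at equal length and Spry2 (21.6) with a 500 bp limit. With a library left out, Fgf10 ranged from -7.69 to 11.51, Fgfr2 from -12.4 to 0.850, Fgfr3 from -8.99 to 21.2 and Spry4 from -4.93 to 18.9. The others kept their sign but not their size: Fgfr1 -9.96 to -0.417, Spry2 -11.1 to -0.578, Dusp6 -19.9 to -1.66, Etv4 -18.9 to -2.29, Spry1 6.15 to 13.8 and Etv5 4.87 to 6.50. Without turning, the stricter score gave 11.8 for Fgf10, 24.7 for Spry1, 22.1 for Spry4, 12.7 for Etv5, -8.21 for Spry2, -16.1 for Dusp6 and -14.7 for Etv4, and Etv4 was -20.4 with a 500 bp limit or protein-coding starts only. Equal length gave -17.5 for Fgfr1, -18.1 for Fgfr2, -14.7 for Spry2, -24.8 for Dusp6, -27.4 for Etv4 and 5.51 for Spry1.

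Differences in the share of summits within 50 kb (percentage points) that turned were these. At equal length Fgfr2 was -0.00193, Fgfr3 -0.00387, Spry1 -0.00387, Spry4 0.00290 and Etv5 -0.00387. With the stricter score Fgfr2 was -0.00198, Fgfr3 -0.00249, Spry1 -0.00473, Spry4 0.00448 and Etv5 -0.000641. Within 20 kb Fgf10 was -0.000106, Spry1 -0.000143, Etv4 0.000219 and Etv5 -0.000114. Within 100 kb Fgfr3 was -0.00426 and Etv4 0.00134. With the long transcript Fgfr2 was -0.000101. With a library left out Fgf10 ranged from -0.00312 to 0.00927, Fgfr3 from -0.00187 to 0.00538, Spry1 from -0.00218 to 0.00322, Spry4 from -0.00454 to 0.00331, Etv4 from -0.00236 to 0.000254 and Etv5 from -0.00116 to 0.00133.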
